A study of Mus musculus with 4 samples.

Results

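The nuclear genes of respiratory complex I were followed in hearts of 8-week-old mice by RNA sequencing of poly(A) RNA. Of the 55401 genes of the deposited table of TPM, an RNA-seq level that corrects for transcript length and library size, 49 have a name that starts with Nduf and holds no -ps. They are 36 subunits of complex I, 8 assembly factors (Ndufaf1 to Ndufaf8), 2 genes that keep an Nduf name although their products are not complex I subunits (*Ndufa4* and *Ndufa4l2*) and 3 copies of other members (*Ndufb4c*, *Ndufs6b* and *Ndufa11b*). They lie on 17 chromosomes, with no more than 6 members on the same chromosome. A further 4 rows whose names end in -ps were left out by the same rule, *Ndufb1-ps* among them. No member is named *Ndufb1*, a further nuclear subunit of complex I, so the 36 subunits do not include it. The hearts came from 2 wild-type mice and 2 Ctcf+/R567W mice, which carry on 1 allele the arginine-to-tryptophan change R567W of the chromatin organiser CTCF, made by CRISPR/Cas9 editing of the germline in a C57BL/6N background and thus present in every cell type of the animal. All animals were kept under specific pathogen-free conditions, and sex, litter and collection day are not given in the sources used here. The labels number the hearts as replicates of a genotype, so that p-values measure the spread between these samples only.

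Complex I, NADH:ubiquinone oxidoreductase, takes electrons from NADH, passes them along a chain of iron-sulphur clusters to ubiquinone and pumps protons across the mitochondrial inner membrane. Its N module oxidises NADH, its Q module reduces ubiquinone, and its proximal and distal P modules form the membrane arm that pumps protons. The core of the pump is encoded by mitochondrial DNA, and the remaining core and accessory subunits are nuclear. Assembly factors bind the intermediates on the way and leave before the enzyme is finished. The adult heart depends on oxidative phosphorylation and expresses complex I at high levels. The comparison asked whether these nuclear transcripts differ between wild-type and Ctcf+/R567W hearts, sequenced by the study in the course of its work on contractile function.

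Most subunit transcripts were lower in the heterozygous hearts, by a small margin, and no single gene passed the test. Levels are given below as deposited TPM or as scaled TPM, which is the deposited TPM divided by a median-of-ratios factor of its library (0.821 to 1.27). Of the 36 subunits, 34 had a log2 fold change below 0 and 2 above it, a split that became 36 and 0 with TPM as deposited, 30 and 6 with quantile normalization and 28 and 8 once mitochondrial genes and their nuclear copies were removed. Of all tested genes 51.6% were below 0 on scaled TPM, 90.6% as deposited, 50.8% with quantile normalization and 43.8% after that removal, so the split of TPM as deposited lay near that of genes at large. The median log2 fold change of the subunits was -0.22 (range -0.69 to 0.16), against -0.01 over all 10036 genes whose mean TPM reached 1. The 8 assembly factors had a median of -0.05, with 6 of them lower and 2 higher, and 3 lower and 5 higher after removal of mitochondrial genes and copies.

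None of the 47 members that reached the filter passed the call, which asked for a limma p, adjusted by Benjamini-Hochberg over every tested gene, under 0.05 together with a change of more than 1.5-fold, as 0.0299% of all tested genes did. The smallest adjusted p of a member was 0.342, for *Ndufb6*. At an unadjusted p under 0.05 in limma, 7 of 36 subunits were lower, against 6.08% of all tested genes, and 0 were higher, against 6.22%. For 18 of 36 subunits the genotypes did not overlap and the heterozygous hearts were the lower ones, against 24.0% of all tested genes, and for 0 they were the higher ones, against 23.0%. Both counts of lower subunits thus stood above their backgrounds. The count of 7 was 0 without either wild-type heart, 4 without heterozygous heart 1 and 21 without heterozygous heart 2.

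**Figure D1:**
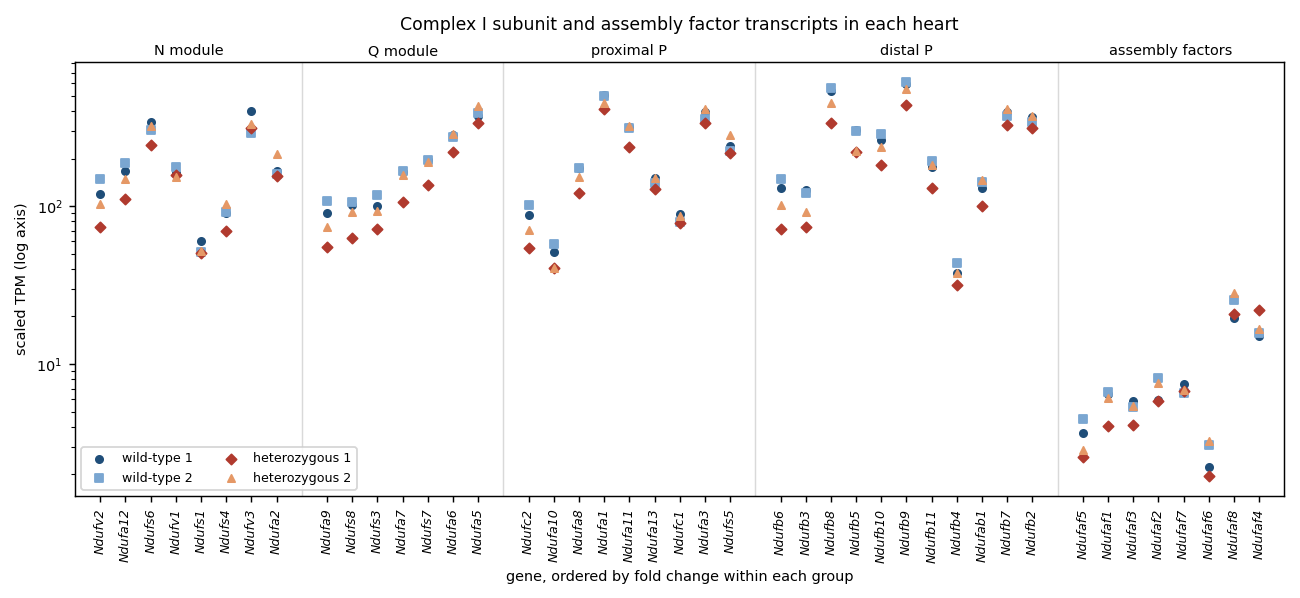
Scaled TPM (log axis) of 35 of the 36 complex I subunits, by module, and the 8 assembly factors in each of the 4 hearts, with circles and squares for wild-type hearts 1 and 2 and diamonds and triangles for heterozygous hearts 1 and 2. The diamonds of heterozygous heart 1 lie under both wild-type points for 34 of the 35 subunits plotted, and the triangles of heterozygous heart 2 for 18.

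The gap between the 2 heterozygous hearts was wider than the gap between the genotypes. Heterozygous heart 1 was under both wild-type hearts for 35 of 36 subunits and between them for 1, with a median of 75.3% of the wild-type mean (range 51.7 to 95.2%), where it was under both for 40.8% of all tested genes. Heterozygous heart 2 was under both for 18, between them for 7 and above both for 11, with a median of 94.4% (range 73.4 to 131.3%), where it was under both for 40.3% of all tested genes, so that its count stood nearer the background. Heart 1 thus carried most of the lower values. It was under heart 2 for 34 of 36 subunits, where the same order held for 50.5% of all tested genes. The median of heart 1 minus heart 2 was -0.38 on the log2 scale in the heterozygous group and -0.01 in the wild-type group. Without heterozygous heart 1 the median log2 fold change of the subunits was -0.08, with 23 lower and 13 higher, and without heterozygous heart 2 it was -0.41, with 36 lower.

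**Figure D2:**
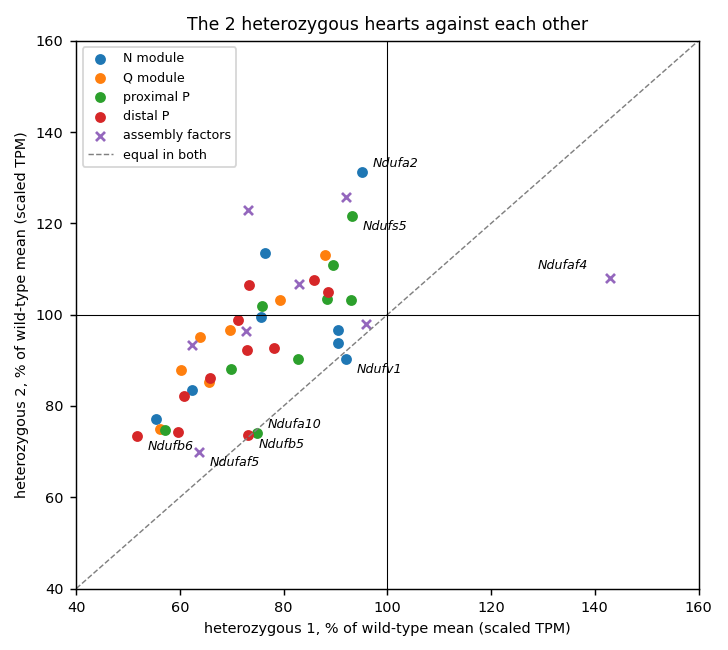
Level of 35 complex I subunits (circles, coloured by module) and the 8 assembly factors (crosses) in heterozygous heart 1 (horizontal) and heterozygous heart 2 (vertical), as a percentage of the wild-type mean of scaled TPM, with a dashed line where both would be equal. Most subunits lie above the dashed line, whereas *Ndufb5* and *Ndufa10* lie near it and *Ndufaf4* lies far to its right.

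Added over all 36 subunits, scaled TPM came to 8241 and 8175 in wild-type against 6312 and 7906 in heterozygous hearts. Both heterozygous sums were lower, with heart 2 close to the wild type. As a share of the TPM outside mitochondrial genes and their nuclear copies, which does not rest on the scaling factors, the subunits held 4.22 and 4.32% in wild-type against 3.65 and 4.08% in heterozygous hearts. The groups did not overlap (4.27 ± 0.0733% against 3.87 ± 0.304%, SD, n = 2), with an exact two-sided permutation p of 0.333, which is the smallest that 2 against 2 can give. In tissue of many cell types, fewer cells of a type and less RNA per cell cannot be told apart.

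Several measures of the libraries moved along with these values, and their part in the result was not tested. Mitochondrial genes took 64.7 and 61.1% of TPM in wild-type against 68.6 and 62.6% in heterozygous hearts, and 11 nuclear copies of them took 14.1 and 14.9% against 17.2 and 19.8%, which left 21.2 and 24.0% against 14.2 and 17.6% for all other genes. TPM keep no sequencing depth, so no counting interval can be given. All 6 cardiomyocyte markers were present (*Myh6* and *Myl2* among them), with a summed scaled TPM of 20796 to 22423 in wild-type against 18371 to 21678 in heterozygous hearts, lowest in heterozygous heart 1. The 5 erythroid markers summed to 934 to 981 and 962 to 2104, highest in heterozygous heart 2. The 4 atrial markers summed to 810 to 2340 and 1910 to 3256. Sums of 5 fibroblast markers (51.2 to 68.5 and 41.3 to 47.8), 5 endothelial markers (68.4 to 70.1 and 61.9 to 65.9) and 3 smooth muscle markers (31.0 to 37.7 and 21.6 to 30.3) were low, and 3 of 5 immune and 1 of 4 adipose markers passed the filter, with sums no higher than 7.98 and 6.39. Markers of the cardiomyocyte, endothelial and fibroblast lists did not all move together. Log2 fold changes ran from -0.47 to 0.07 for cardiomyocyte, -0.43 to 0.14 for endothelial and -0.57 to 0.08 for fibroblast markers. The genotypes overlapped for 4 of 6, 2 of 5 and 3 of 5 of them, against 5323 of all 10036 tested genes. All 4 atrial (0.71 to 0.94) and all 5 erythroid markers (0.25 to 0.62) were higher, and all 3 smooth muscle markers were lower (-0.54 to -0.15). Overlap was seen for 4 of 4, 4 of 5 and 1 of 3 of these. Directions were mixed without wild-type heart 1 (atrial), heterozygous heart 2 (erythroid) or heterozygous heart 1 (smooth muscle). Erythroid directions were mixed also with TPM as deposited.

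Promoter sequence was examined for letters recognised by factors of respiratory genes and by CTCF. RefSeq windows on GRCm38.p6, from 250 bases before to 50 bases after the start, were at hand for 40 of 49 members. All letters were read on both strands, and a gene counted once if any of its windows matched. The NRF1 letters GCGCANGCG were found in 10 of the 40 members, against 7.03% of all 27025 genes with a window. The YY1 letters AAGATGGCG were in 6 (1.64% of all genes), the ETS letters CCGGAAG in 6 (9.93%) and the estrogen-related receptor letters TCAAGGTCA in 0 (0.466%). NRF1 and YY1 letters occurred together in *Ndufs6*, YY1 and ETS letters in *Ndufaf8*, and NRF1 and CTCF letters in *Ndufaf4*. The core CTCF motif, searched under its 12-letter consensus, matched in 2 members, *Ndufaf4* and *Ndufv1* (0.636% of all genes). A match is a description of the letters and not a measurement of binding. The windows below carry the CTCF match of these 2 members, the ETS match of *Ndufb6*, the member with the lowest fold change, and the NRF1 match of *Ndufs5*, a subunit with a fold change above 0. Each ends before the start of its gene and is written 5′ to 3′ on the gene's strand, with the matched letters in capitals. The match of *Ndufb6* is on the other strand, so its capitals are the reverse complement of the ETS letters.
*Ndufaf4*, chr4:24897997-24898068, plus strand: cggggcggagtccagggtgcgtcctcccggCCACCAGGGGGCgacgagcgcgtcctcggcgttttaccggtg
*Ndufv1*, chr19:4012897-4012968, minus strand: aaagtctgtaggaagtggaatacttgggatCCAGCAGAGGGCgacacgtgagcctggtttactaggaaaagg
*Ndufb6*, chr4:40279617-40279671, minus strand: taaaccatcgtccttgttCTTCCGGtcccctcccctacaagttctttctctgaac
*Ndufs5*, chr4:123718246-123718314, minus strand: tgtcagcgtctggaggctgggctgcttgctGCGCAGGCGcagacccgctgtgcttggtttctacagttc

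The CTCF letters begin 56 bases before the start of *Ndufaf4* and 183 bases before that of *Ndufv1*. *Ndufaf4* had the highest log2 fold change of the members (0.30) and *Ndufv1* had -0.13, neither passed the test, and with TPM as deposited both lay below 0 (-0.12 and -0.57). Transcripts of the factors themselves overlapped between genotypes. *Ctcf* had 6.15 and 5.99 scaled TPM in wild-type against 7.48 and 5.71 in heterozygous hearts (log2 fold change 0.09, SE 0.16), which does not check a point mutation. The log2 fold changes of *Nrf1*, *Gabpa* (an ETS factor), *Esrra* and *Yy1* lay between -0.14 and 0.24.

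In the N module, which carries the NADH site, the median log2 fold change was -0.12, with 7 of 8 subunits lower. In this module 3 of 8 were lower without overlap, against 24.0% of all tested genes, a share that serves for the modules below too. Without heterozygous heart 1 the median was -0.06, with 6 of 8 lower. *Ndufv2*, an iron-sulphur core subunit, had 128.3 and 188.0 TPM in wild-type against 60.7 and 93.7 TPM in heterozygous hearts. Both heterozygous values were lower, also as scaled TPM (119 and 148 against 74.0 and 103), with a log2 fold change of -0.60 (SE 0.23, limma adjusted p = 0.386). *Ndufa12*, an accessory subunit that joins late in assembly, had 168 and 188 against 111 and 148 scaled TPM (log2 fold change -0.47, SE 0.21). *Ndufv1*, which binds FMN and NADH, was nearly level between the heterozygous hearts, with 162 and 178 against 156 and 153 scaled TPM (log2 fold change -0.13). *Ndufs1*, which holds further iron-sulphur clusters, had 60.0 and 51.4 against 50.4 and 52.2 scaled TPM, and the groups overlapped. *Ndufs4*, whose loss in mice gives a Leigh-like disease, was low in heterozygous heart 1 and high in heart 2, with 91.0 and 91.5 against 69.7 and 103.5 scaled TPM.

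*Ndufa2* was the subunit with the highest log2 fold change of all 36, at 0.16 (SE 0.22, limma adjusted p = 0.775). Its product is an accessory subunit of the N module with a thioredoxin-like fold. It had 166 and 159 scaled TPM in wild-type against 155 and 214 in heterozygous hearts, so heart 2 alone was above the wild type. The direction turned to -0.28 with TPM as deposited, to -0.16 with mitochondrial genes removed and to -0.08 without heterozygous heart 2.

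The Q module, where electrons reach ubiquinone, had a median log2 fold change of -0.32, and all 8 of its subunits were lower with 5 of 8 free of overlap. With quantile normalization, GC and length correction or removal of mitochondrial genes and copies, *Ndufa5* was no longer lower, and without heterozygous heart 1 the median was -0.06 with 5 of 8 lower. *Ndufa9*, an accessory subunit at the junction of the arms (chr6:126821721-126849136), had 98.0 and 135.8 TPM in wild-type against 45.5 and 67.5 TPM in heterozygous hearts. Both heterozygous values were lower, with 65.5% of the wild-type mean as scaled TPM and a log2 fold change of -0.61 (SE 0.21, limma adjusted p = 0.366). The core subunits *Ndufs8*, *Ndufs3* and *Ndufs7* had log2 fold changes of -0.45, -0.41 and -0.28, each without overlap, and of -0.19, -0.23 and -0.05 without heterozygous heart 1. *Ndufs8* had 101 and 107 scaled TPM in wild-type against 62.5 and 91.3 in heterozygous hearts, *Ndufs3* 99.5 and 118 against 71.5 and 92.8, and *Ndufs7* 195 and 196 against 137 and 189. Heterozygous heart 1 was the lowest for all 3 genes. *Ndufa5* had 372 and 388 against 334 and 429 scaled TPM, which gave a log2 fold change of -0.003 (SE 0.21).

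The proximal P module had a median of -0.19, with 8 of 9 lower and 4 of 9 without overlap, or 5 of 9 lower under quantile normalization and after removal of mitochondrial genes and copies. Without heterozygous heart 1 its median was 0.02, with 4 of 9 lower. *Ndufc2* had 94.3 and 128.8 TPM against 44.3 and 64.3 TPM, a log2 fold change of -0.60 on scaled values (SE 0.21, limma adjusted p = 0.362). *Ndufa10*, an accessory subunit related to nucleoside kinases, had 51.2 and 57.8 scaled TPM in wild-type against 40.8 and 40.4 in heterozygous hearts (log2 fold change -0.41, SE 0.17, limma adjusted p = 0.400). It was 1 of 6 subunits whose heterozygous values lay within 10% of each other. Both heterozygous hearts were low to the same degree. *Ndufa1*, an X-linked subunit needed for assembly of the membrane arm, had 502 and 498 against 414 and 451 scaled TPM. *Ndufs5* was the other subunit above 0, with 240 and 224 against 216 and 282 scaled TPM (log2 fold change 0.09, SE 0.21), and it turned to -0.35 with TPM as deposited, to -0.24 with mitochondrial genes removed and to -0.11 without heterozygous heart 2. *Ndufa13*, also known as GRIM-19, *Ndufc1* and *Ndufa3* had log2 fold changes of -0.06, -0.03 and -0.004, which became 0.01, 0.05 and 0.07 after removal of mitochondrial genes and copies.

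The distal P module at the tip of the membrane arm had a median of -0.29, with 11 of 11 lower and 6 of 11 without overlap, or 9 of 11 lower after removal of mitochondrial genes and copies, when *Ndufb2* and *Ndufb7* turned. Without heterozygous heart 1 its median was -0.12, with 8 of 11 lower. *Ndufb6*, an accessory membrane subunit (chr4:40270591-40279421), had 140.5 and 187.5 TPM in wild-type against 58.9 and 92.8 TPM in heterozygous hearts. As scaled TPM these were 130 and 148 against 71.8 and 102, or 62.5% of the wild-type mean, with a log2 fold change of -0.69 (SE 0.23, 95% interval -1.23 to -0.15, limma adjusted p = 0.342). This was the lowest fold change of the 36 subunits. *Ndufb6* shares 39.0% of its exon bases with *Smim27* on the opposite strand, which was listed at 0.44 to 0.81 TPM. Whether the library kit marks strand is not given in the sources used here.

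Of the other distal subunits, *Ndufb3* had 127 and 121 scaled TPM in wild-type against 74.0 and 92.3 in heterozygous hearts (log2 fold change -0.58, SE 0.19, limma adjusted p = 0.343). *Ndufb5* had 305 and 300 against 221 and 223 scaled TPM (log2 fold change -0.44, SE 0.18, limma adjusted p = 0.398). Like *Ndufa10*, it was low to the same degree in both heterozygous hearts, and its log2 fold change without heterozygous heart 1 was -0.44, equal to that with it. *Ndufb8*, whose protein is a common marker of assembled complex I on blots, had 538 and 559 against 334 and 451 scaled TPM (log2 fold change -0.50). *Ndufab1*, the mitochondrial acyl carrier protein, which sits at more than 1 place in the enzyme, overlapped with 131 and 142 against 100 and 145 scaled TPM. At the other end *Ndufb2* and *Ndufb7* had log2 fold changes of -0.05 and -0.06.

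**Figure D3:**
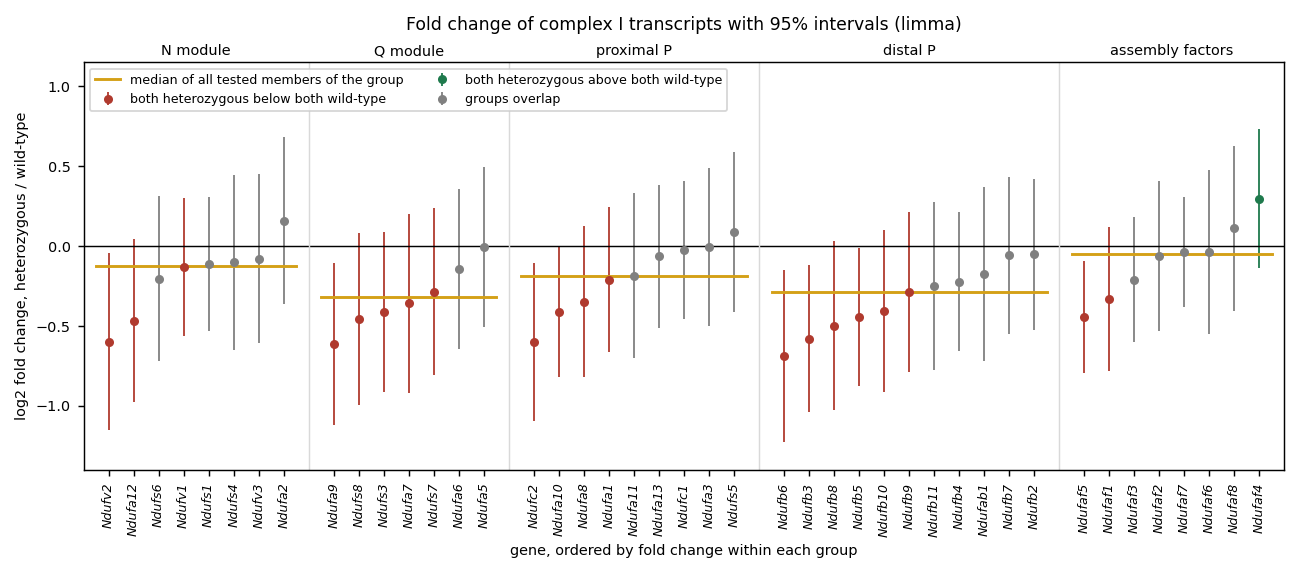
Log2 fold change (heterozygous over wild-type, scaled TPM) of 35 subunits and the 8 assembly factors, each with its 95% limma interval, coloured by whether the hearts of the genotypes overlap, with a horizontal bar at the median over all tested members of each group. Medians are -0.12, -0.32, -0.19, -0.29 and -0.05 from left to right, with TPM as deposited all 36 subunits and 90.6% of all tested genes would lie under 0, and no gene plotted is called after adjustment.

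By type of subunit, the 7 nuclear core subunits had a median of -0.28 with 5 of 7 lower without overlap. The 29 accessory subunits had a median of -0.21 with 13 of 29, where the share of all tested genes was 24.0%. Neither length, base composition nor level ordered the fold changes closely. Across the 36 subunits, as a description over genes that share the same 4 libraries, the log2 fold change had a Pearson r of 0.09 with log2 transcript length, 0.16 with GC percent and 0.34 with mean log2 level, where the r values over all tested genes with an annotation were 0.09, 0.07 and 0.0003. After a correction for GC and length the subunit median was -0.13, with 31 lower and 5 higher.

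The balance among subunits can be read without any scaling between libraries, by setting each subunit against the median subunit of its own heart. On this scale 12 of 36 subunits were lower in both heterozygous hearts, 9 were higher in both and 15 overlapped, and the differences ran from -0.46 to 0.39 on the log2 scale. The same share over all tested genes was not computed on this scale. On scaled TPM 24.0% of them were lower and 23.0% higher without overlap. A reference at the median subunit also places members on both sides of it by design. *Ndufb6* was 0.39 and 0.30 under the median subunit in wild-type hearts and 0.89 and 0.73 under it in heterozygous hearts. *Ndufb3* was 0.43 and 0.58 under it against 0.85 and 0.87, so both genes had lower values relative to their partners in each heterozygous heart. *Ndufa9*, *Ndufc2* and *Ndufv2* followed with differences of -0.38, -0.37 and -0.37, and *Ndufb8*, *Ndufa12*, *Ndufs8*, *Ndufs3*, *Ndufb10*, *Ndufa8* and *Ndufb9* were also lower without overlap.

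In the opposite direction, *Ndufa2* was 0.04 and 0.20 under the median subunit in wild-type hearts and 0.21 and 0.33 above it in heterozygous hearts. *Ndufs5* was 0.49 and 0.29 above it against 0.69 and 0.73. Relative to the other subunits both genes were thus higher in each heterozygous heart, whatever factor scaled the libraries. *Ndufa5*, *Ndufa3*, *Ndufb2*, *Ndufb7*, *Ndufa13* and *Ndufa6* were among those also higher without overlap, by 0.09 to 0.23. A value set against the members themselves shows unequal levels and not which member differed, and no test was run on it.

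**Figure D4:**
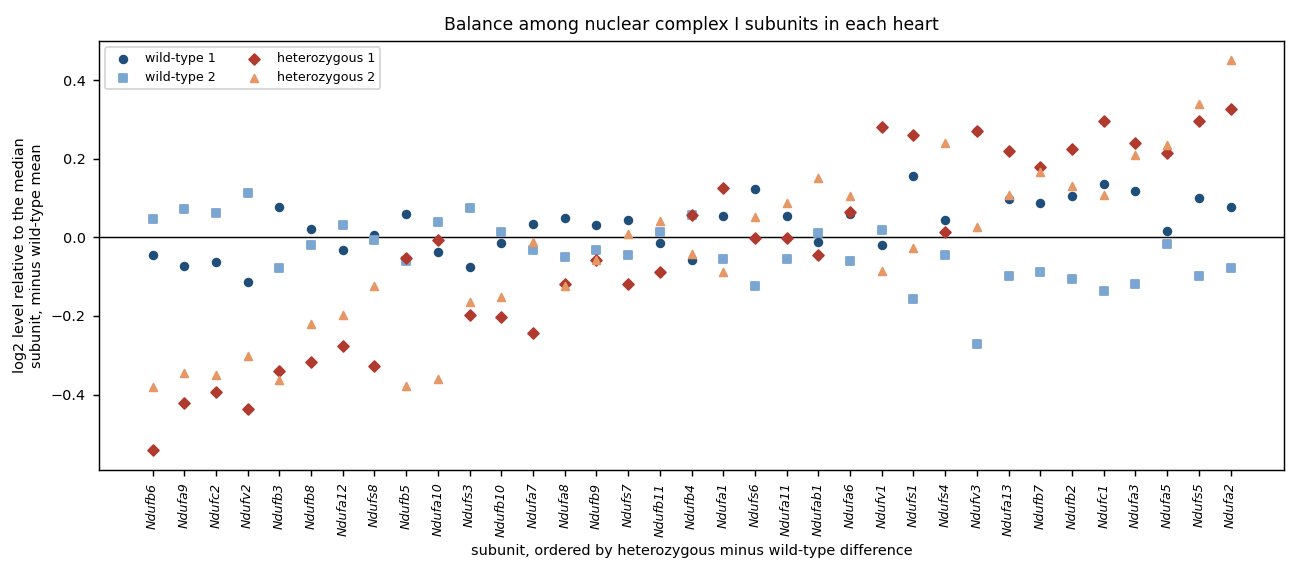
Log2 level of 35 of the 36 subunits relative to the median subunit of the same heart, minus the wild-type mean of that value, for wild-type hearts (circles and squares) and heterozygous hearts (diamonds and triangles). *Ndufb6* at the left has the lowest heterozygous values relative to the wild type (difference -0.46) and *Ndufa2* at the right the highest (0.39), and 15 subunits overlap between genotypes.

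The order of the subunits by level was nearly the same in both genotypes, with a Spearman rho of 0.979 between mean scaled TPM over the 36 genes, given as a description. TPM are per length and can be compared between genes. *Ndufb9* was the highest with 602 ± 10.2 scaled TPM in wild-type against 497 ± 82.1 in heterozygous hearts (SD, n = 2). *Ndufb8* followed with 549 ± 15.0 and 393 ± 83.0 and *Ndufa1* with 500 ± 3.4 and 433 ± 26.2, so that these 2 changed places between genotypes within the spread of the heterozygous hearts. At the low end were *Ndufs1* (55.7 ± 6.1 and 51.3 ± 1.2), *Ndufa10* (54.5 ± 4.7 and 40.6 ± 0.3) and *Ndufb4* (40.7 ± 4.3 and 34.8 ± 4.2). In wild-type hearts *Ndufs1* and *Ndufa10* did not differ from each other beyond their spread. The highest subunit was 14.8 times the lowest in wild-type hearts.

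The low rank of *Ndufb4* depends on how its reads were shared out. *Ndufb4c*, a processed pseudogene on chromosome 15 (chr15:73809507-73809896), is identical to the *Ndufb4* transcript over 390 bases and was listed at 459 and 603 TPM in wild-type against 214 and 350 TPM in heterozygous hearts, where *Ndufb4* itself had 40.8 and 55.4 against 26.1 and 34.4 TPM. The copy thus held 89.1 to 91.8% of their sum, and the 2 rows are uncertain for that reason. Summed, they had a log2 fold change of -0.48 (SE 0.24, limma adjusted p = 0.450) without overlap, against -0.22 with overlap for *Ndufb4* alone. Near-identical copies of *Ndufab1*, *Ndufb3*, *Ndufb11*, *Ndufs3*, *Ndufs5* and *Ndufs6* took at most 4.03% of the sum with their gene. *Ndufa11b* was listed at 0 in every heart, and *Ndufs6b* at 0 in 3 hearts and at 0.66 TPM in heterozygous heart 2.

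The assembly factors were expressed at far lower levels than the subunits, with a summed scaled TPM of 66.4 and 75.4 in wild-type against 68.0 and 77.0 in heterozygous hearts. The groups overlapped. *Ndufaf5*, which hydroxylates an arginine of the Q module subunit Ndufs7, had 3.67 and 4.48 scaled TPM in wild-type against 2.60 and 2.85 in heterozygous hearts, a log2 fold change of -0.44 (SE 0.15, limma adjusted p = 0.343). Both heterozygous hearts were lower to a similar degree, and it was the only assembly factor with an unadjusted p under 0.05. *Ndufaf8*, its binding partner, had 19.6 and 25.3 against 20.6 and 28.2 scaled TPM, with a log2 fold change of 0.11 that became -0.31 with TPM as deposited, -0.21 with mitochondrial genes removed and negative without wild-type heart 1 or heterozygous heart 2. The difference between the pair was not tested.

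*Ndufaf3* and *Ndufaf4* act together in early assembly of the Q module. *Ndufaf4* had 15.1 and 15.8 scaled TPM in wild-type against 22.1 and 16.7 in heterozygous hearts (log2 fold change 0.30, SE 0.18, limma adjusted p = 0.520). It was the only member with both heterozygous hearts above both wild-type hearts, most of it from heterozygous heart 1, and the fold change was 0.10 without that heart, -0.12 with TPM as deposited and -0.01 with mitochondrial genes removed. *Ndufaf3* had 5.87 and 5.38 against 4.09 and 5.43 scaled TPM, with overlap. *Ndufaf1*, a member of the complex that assembles the membrane arm, had 6.49 and 6.62 against 4.08 and 6.12 scaled TPM (log2 fold change -0.33, SE 0.19), lower without overlap. Its log2 fold change was -0.09 without heterozygous heart 1.

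For the remaining assembly factors the genotypes overlapped, and each 95% limma interval of the fold change held 0. *Ndufaf2*, which helps to attach the N module, had 5.93 and 8.21 against 5.86 and 7.55 scaled TPM. *Ndufaf6* had 2.24 and 3.09 against 1.95 and 3.27, and *Ndufaf7*, a protein methyltransferase, had 7.49 and 6.55 against 6.73 and 6.88. Their log2 fold changes lay between -0.06 and -0.04 and became 0.002, 0.01 and 0.03 after removal of mitochondrial genes and copies. A list of 11 complex I assembly genes with other names gave a similar picture, with 9 tested, 6 lower and 3 higher, and a median of -0.13. Of the 9, 3 were lower and 2 higher without overlap, against 24.0% and 23.0% of all tested genes. In that list *Ecsit*, a partner of Ndufaf1, had 16.5 and 17.8 against 12.2 and 15.0 scaled TPM, and *Foxred1*, an oxidoreductase-like assembly factor, had 15.7 and 16.9 against 22.4 and 18.9.

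*Ndufa4*, counted today as a subunit of cytochrome c oxidase, had 972 and 1200 TPM in wild-type against 561 and 788 TPM in heterozygous hearts. As scaled TPM it was lower without overlap (898 and 947 against 683 and 866), with a log2 fold change of -0.26 (SE 0.21, limma adjusted p = 0.623), and of -0.10 without heterozygous heart 1. Its level was above that of every complex I subunit in each of the 4 hearts. *Ndufa4l2*, a relative known for its induction by hypoxia, had 7.57 and 6.45 against 5.26 and 6.83 scaled TPM and overlapped.

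Set beside the other mitochondrial gene lists, the subunits were not alone in standing below the median of all genes. The 39 nuclear subunits of complexes II to V had a median log2 fold change of -0.37, with 34 lower, or 32 under quantile normalization and after removal of mitochondrial genes and copies. Of the 39, 23 were lower without overlap (24.0% of all tested genes) and 11 were lower at an unadjusted p under 0.05 in limma (6.08%). Without heterozygous heart 1 their median was -0.18 with 24 lower, and without heterozygous heart 2 it was -0.55 with 39 lower. The 78 mitochondrial ribosomal protein genes had a median of -0.17, with 58 lower and 32 lower without overlap, against the same 24.0% of all tested genes. Their median was -0.05 with 43 lower without heterozygous heart 1. Heterozygous heart 1 was under heterozygous heart 2 for 39 of 39 and 70 of 78 of these genes, as it was for the complex I subunits. The difference between the lists was not tested.

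The 7 complex I transcripts of mitochondrial DNA lay on the other side. All 7 had a log2 fold change above 0, with a median of 0.62, against 5 of 7 and a median of 0.18 with TPM as deposited and 4 of 7 and a median of 0.001 with quantile normalization. On scaled TPM 5 were higher without overlap, against 23.0% of all tested genes. At an unadjusted p under 0.05 in limma 4 were higher, against 6.22%. *mt-Nd4*, for example, had 25750 and 23273 scaled TPM in wild-type against 39086 and 38314 in heterozygous hearts, a log2 fold change of 0.66 (SE 0.21, limma adjusted p = 0.340). *mt-Nd4l* and *mt-Nd5* overlapped. Nuclear and mitochondrial transcripts of the same enzyme had medians of opposite sign on scaled TPM and as deposited, and the difference between them was not tested.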

How the data were processed

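Poly(A) RNA of whole heart tissue was sequenced in 4 libraries. The authors trimmed reads with Trim Galore, aligned them to mm10 with STAR, quantified genes with RSEM and deposited TPM with 2 decimals; annotation release and strandedness are not given in the sources used here. TPM were divided by median-of-ratios factors over genes above 0 in every library, and log2(scaled TPM + 1) of the 10036 genes whose mean TPM reached 1 was fitted with limma 3.58.1 (trend, two-sided, R 4.3.3), so fold changes of low genes are understated. Identifiers were matched to GENCODE (55141 of 55401). Copies were pairs with at least 95% identity over at least 80% of the shorter transcript and 200 bases (BLAST+ 2.17.0). The fit was tried on simulated data with independent noise and with changes larger than that of any member. It was thus not tried on small differences or on shifts shared by many genes of 1 heart. Members, lists and modules were chosen with earlier results of these data known. The values of 1 subunit are not reported here by name, although it enters the counts and medians. All Nduf members were in the rule for named genes, with values in every heart for those with the smallest p and the largest and smallest fold change of each module and for all Ndufaf genes. Alternatives in scaling, pseudocount, filter, fit, copies and left-out hearts follow; values relative to the median subunit were chosen after seeing the data.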

Additional observations from a re-analysis of the deposited data

How the results depend on the processing

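No member was called under any of 18 other ways of processing, with a smallest adjusted p of 0.0891 (TPM as deposited, limma). TPM as deposited gave 21 subunits lower at an unadjusted p under 0.05, 35 lower without overlap and medians of -0.65 for subunits and -0.43 for assembly factors, while the median of all genes moved to -0.35 and 33.3% of all tested genes met the first criterion and 67.8% the second. Removal of mitochondrial genes gave 29, 35, -0.54 and -0.36, with all genes at -0.29 and at 24.7% and 56.1% for these criteria. Less the median of all genes, the subunit median stayed between -0.30 and -0.13 under the scaling and GC alternatives, and was -0.07 without heterozygous heart 1 and -0.40 without heart 2.

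With each heart left out in turn, 0 to 21 subunits were lower at an unadjusted p under 0.05 and 19 to 35 lower without overlap, against 2.60 to 12.6% and 34.6 to 41.3% of all tested genes (19 against 40.9% without heterozygous heart 1), with medians of -0.41 to -0.084 for subunits and -0.27 to 0.033 for assembly factors. Fits with 1 heart in a group take its spread from the other group. The replicate block, a term for same-numbered hearts, gave 5 subunits at an unadjusted p under 0.05 and a smallest adjusted p of 0.240. With GC and length correction it gave 11 subunits, and no member was called in either fit. These counts are not set against the share of all tested genes in the same fits, so no excess over background is read from them. Deviations of same-numbered hearts correlated at 0.101, and the labels tie them to no shared animal, so the numbers were taken as names only.

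Of 46 members reported by name, 28 kept their direction under every alternative and 18 did not. With TPM as deposited, *Ndufa2*, *Ndufaf4*, *Ndufaf8* and *Ndufs5* turned to -0.28, -0.12, -0.31 and -0.35, and with mitochondrial genes removed to -0.16, -0.012, -0.21 and -0.24. With copies removed as well, *Ndufa13*, *Ndufa3*, *Ndufa5*, *Ndufaf2*, *Ndufaf6*, *Ndufaf7*, *Ndufb2*, *Ndufb7* and *Ndufc1* turned to 0.0076, 0.068, 0.069, 0.0021, 0.014, 0.029, 0.021, 0.016 and 0.045. Quantile normalization turned *Ndufa13*, *Ndufa3*, *Ndufa5* and *Ndufc1* to 0.056, 0.015, 0.032 and 0.028. GC and length correction, with or without the block, turned *Ndufa3*, *Ndufa5*, *Ndufaf6* and *Ndufc1* to 0.12, 0.12, 0.073 and 0.060. Over the left-out hearts the range was -0.40 to 0.024 for *Ndufa11*, -0.18 to 0.044 for *Ndufa13*, -0.075 to 0.39 for *Ndufa2*, -0.16 to 0.15 for *Ndufa3*, -0.19 to 0.17 for *Ndufa5*, -0.34 to 0.042 for *Ndufa6*, -0.45 to 0.088 for *Ndufab1*, -0.27 to 0.14 for *Ndufaf2*, -0.31 to 0.23 for *Ndufaf6*, -0.12 to 0.040 for *Ndufaf7*, -0.11 to 0.33 for *Ndufaf8*, -0.18 to 0.067 for *Ndufb2*, -0.22 to 0.10 for *Ndufb7*, -0.12 to 0.053 for *Ndufc1*, -0.39 to 0.18 for *Ndufs4*, -0.11 to 0.28 for *Ndufs5* and -0.30 to 0.14 for *Ndufv3*. The cause of these turns was not tested. With 2 hearts a group and no depth, small differences between genotypes could not be resolved.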
